A study of Mus musculus with 5 samples.

Results

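Glycolysis and the response to low oxygen were followed through 35 genes in lenses of mouse embryos at day 14 of gestation. The members were chosen by gene symbol: 15 enzymes that carry glucose to lactate, and 20 other genes, namely 4 for transport and control of glycolysis, 5 of the oxygen-sensing HIF system and 11 that low oxygen is known to induce. Of these, 34 were rows of the deposited table of 12370 gene symbols, and 33 of the 12035 genes tested were members. Adm was not analysed here, and Eno1 had too few counts for the test.

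Embryos without Cre, with both N-myc alleles flanked by loxP sites, gave the 3 control libraries. Some controls are described as also having loxP sites at both c-myc alleles, and the sources used here do not tie this to a library. The 2 knockout libraries came from embryos with the same N-myc alleles and 1 copy of Mlr10-Cre, a transgene that expresses Cre recombinase in the lens. Since no control carried Cre, the transgene and the deletion cannot be told apart. RNA was taken from lenses that had been pooled over animals, in pools of unstated size, so the spread behind each p-value is that between pools.

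In glycolysis, glucose enters the cell through transporters such as Slc2a1, is phosphorylated by hexokinase and is split and oxidised in steps to pyruvate, which lactate dehydrogenase turns into lactate. HIF is a transcription factor made of an oxygen-labile alpha subunit (Hif1a) and a stable partner (Arnt). With oxygen present, prolyl hydroxylases (the Egln enzymes) mark Hif1a for destruction through Vhl, and without it HIF turns on glycolytic enzymes and genes for blood vessel growth, mitophagy and collagen processing. The lens has no blood vessels inside it, its mature fibre cells lose their mitochondria, and glycolysis is their main source of energy. Many glycolytic genes are also textbook targets of MYC proteins.

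Mycn, the deleted gene, had raw counts of 2066, 1955 and 1848 in the controls, replicates 1 to 3, against 801 and 1141 in the knockouts. Total counts ran from 13162384 to 13746416 per library. The 10 lens markers (crystallins, fibre proteins and lens transcription factors) were all in the table and summed to between 69723 and 82311 CPM (counts scaled by library size and TMM factors) in the controls and to 66959 and 76817 CPM in the knockouts. That sum was mostly Cryaa and Crybb1. Of the 10 markers 3 fell with edgeR, namely Bfsp1, a protein of the beaded filaments of fibre cells (3.07-fold, adjusted p = 0.0097), Cryab, a crystallin and small heat shock protein (1.57-fold, 0.024), and Mip, the water channel of fibre cells (1.39-fold, 0.044). Over all 10 markers, 5 had log2 fold changes below 0 and 5 above 0, with a median of -0.18. The 3 fallen markers moved in the same direction as the members that fell, and their part in those results was not tested. The knockout libraries differed in markers of neighbouring tissue. Skeletal muscle markers (9 of 10 in the table) summed to 361.4 CPM in knockout replicate 1 and 14.3 CPM in replicate 2, against 12.1 to 49.6 CPM in the controls. Mesenchyme markers (10 of 10) summed to 2373 and 771.7 CPM against 604.2 to 896.0 CPM. Retina markers (10 of 11) summed to 91.5 and 169.8 CPM against 60.0 to 66.4 CPM. Red blood cell markers (10 of 15) summed to 96.3 and 102.5 CPM against 95.1 to 129.7 CPM, with 4 of them (the adult globins Hba-a1, Hba-a2, Hbb-bt and Hbb-b1) at 0 counts in all libraries. Endothelial markers (10 of 10) summed to 252.6 and 260.6 CPM against 241.2 to 296.1 CPM, and macrophage markers (7 of 8) to 46.2 and 46.6 CPM against 21.6 to 44.9 CPM. Of 7 pigment cell markers 2 were in the table, and they summed to 30.1 and 39.2 CPM against 38.6 to 48.8 CPM. These 2 moved in opposite directions with edgeR. Mitf, the larger part of the sum, fell 1.54-fold (adjusted p = 0.027), and Pmel rose 3.21-fold from a low level (0.030).

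Of the 33 members tested, 8 fell in the knockout lenses and 0 rose (edgeR quasi-likelihood test, adjusted p under 0.05 over all genes tested). Over all genes 8.51% were lower and 7.98% higher by that test. With library totals as the only scaling 5.29% of all genes were lower and 12.6% higher, and 6 of the 8 still fell (not Pgam1 and Ero1l). The 8 members were the low-oxygen genes Bnip3, Ndrg1, P4ha1, Kdm3a and Ero1l and the glycolytic enzymes Pgk1, Pgam1 and Pkm. The median log2 fold change was -0.33 over the 14 glycolytic enzymes tested and -0.38 over the 19 other members, against 0.00 over all genes. Both knockout libraries lay below every control library for 20 of the 33 members, where 27.0% of all tested genes did so, and above every control for 2 (Arnt and Vhl), where 25.5% did. At an unadjusted edgeR p under 0.05 there were 16 of 33 members, where 35.8% of all genes were. In bulk lenses, fewer cells that make a transcript and less of it per cell cannot be told apart.

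**Figure D1:**
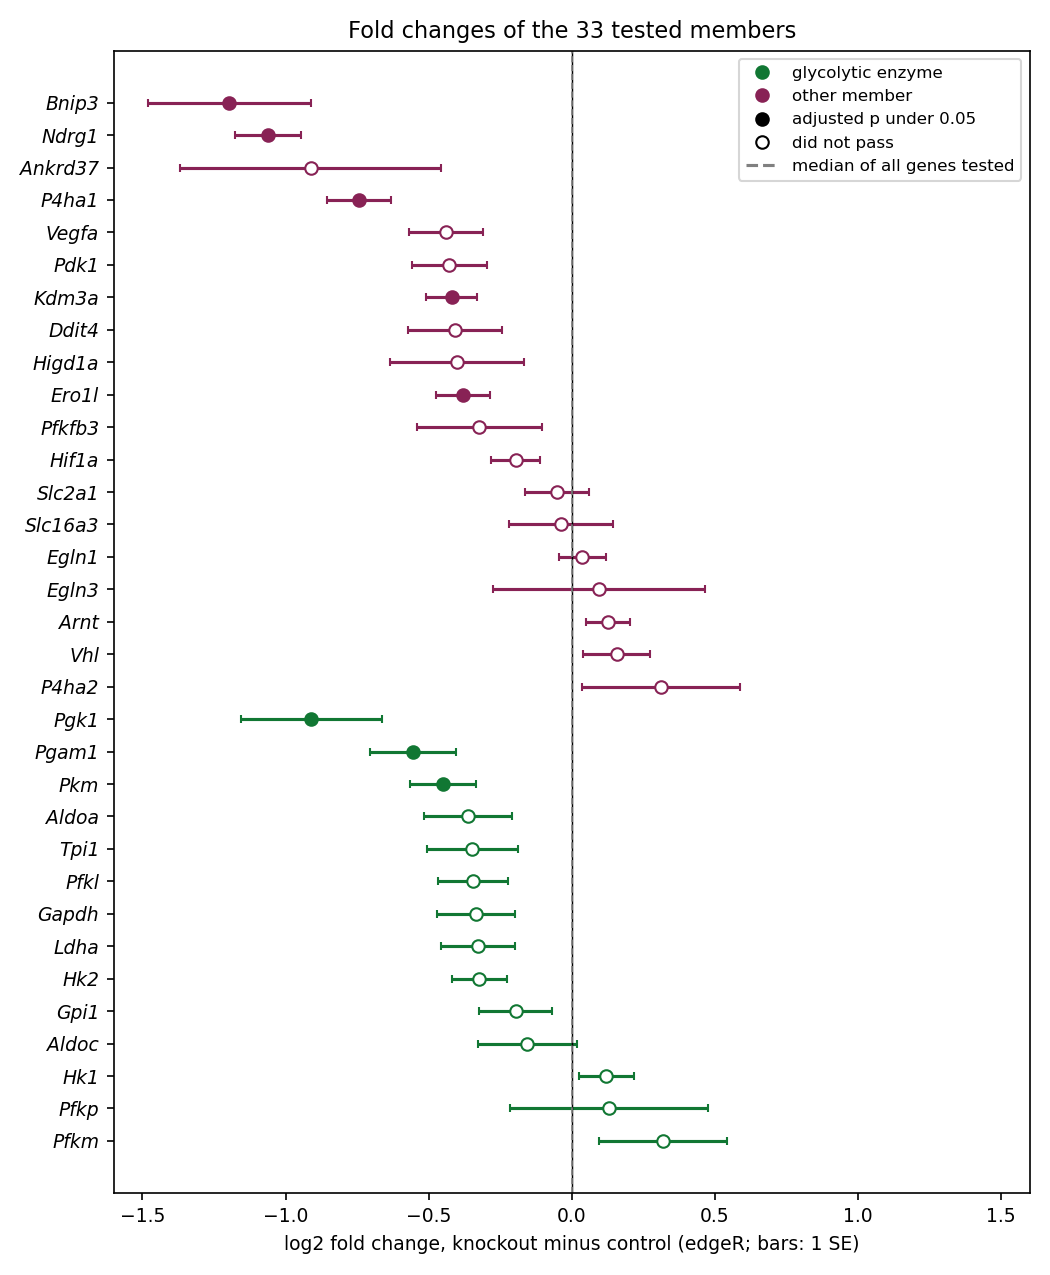
Log2 fold change (knockout minus control, horizontal axis) of the 33 tested members, with bars of 1 SE from edgeR. Filled points passed the test, and all 8 of them lie left of 0, from -0.38 for Ero1l to -1.20 for Bnip3.

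Among the members that low oxygen induces, 5 of the 10 tested fell, where 8.51% of all genes were lower. For 9 of 10 both knockout libraries lay below every control, where 27.0% of all tested genes did so. The median log2 fold change of these 10 members was -0.43. Bnip3, a receptor that tags mitochondria for removal (chromosome 7, 138890836 to 138909519, GRCm38), stood at 20.6, 38.1 and 20.6 CPM in the controls and at 12.2 and 10.9 CPM in the knockouts. The knockouts were close to each other and below all controls, and control replicate 2 stood far above the other controls. Bnip3 fell 2.29-fold (edgeR log2 fold change -1.20 with SE 0.28, adjusted p = 0.032).

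Ndrg1, a differentiation and stress gene that low oxygen strongly induces (chromosome 15, 66929318 to 66969640), stood at 102.5, 115.9 and 126.1 CPM in the controls and at 50.8 and 59.2 CPM in the knockouts. Here the controls lay close together and control replicate 2 was the middle one. Ndrg1 fell 2.09-fold (edgeR log2 fold change -1.06 with SE 0.115, adjusted p = 0.0059).

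P4ha1 encodes a catalytic subunit of the prolyl 4-hydroxylase that stabilises collagen (chromosome 10, 59323296 to 59373304). It was among the most abundant members, at 532.1, 632.7 and 511.3 CPM in the controls and 326.6 and 341.2 CPM in the knockouts. P4ha1 fell 1.67-fold (edgeR log2 fold change -0.74 with SE 0.113, adjusted p = 0.012). Its isozyme P4ha2 stood at 9.33, 15.0 and 8.27 CPM in the controls and 15.9 and 11.1 CPM in the knockouts, so the groups overlapped, and it did not pass (log2 fold change 0.31, SE 0.275).

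Kdm3a, a histone H3 lysine demethylase that needs oxygen to act (chromosome 6, 71588972 to 71632990), stood at 159.4, 172.3 and 148.6 CPM against 118.2 and 121.1 CPM. It fell 1.34-fold (edgeR log2 fold change -0.42 with SE 0.088, adjusted p = 0.024). Ero1l, an oxidase that drives disulphide bond formation in the endoplasmic reticulum (chromosome 14, 45283087 to 45318771), stood at 61.1, 68.0 and 58.3 CPM against 47.4 and 48.6 CPM. It fell 1.30-fold (edgeR log2 fold change -0.38 with SE 0.095, adjusted p = 0.036). For both genes the groups did not overlap, and the knockout libraries differed by less than the controls did.

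The other 5 low-oxygen genes tested did not pass. Vegfa, the main growth factor for blood vessels, stood at 149.6, 196.7 and 155.1 CPM in the controls and 130.8 and 115.6 CPM in the knockouts (edgeR log2 fold change -0.44 with SE 0.13, adjusted p = 0.054). Ddit4, an inhibitor of mTOR signalling, had a log2 fold change of -0.41 (SE 0.16), and Higd1a, a mitochondrial inner membrane protein, one of -0.40 (SE 0.23). Ankrd37 had one of -0.91 with a wide error (SE 0.46), resting on raw counts of 25, 66 and 31 for the controls, against 24 and 22. For Vegfa, Ddit4, Higd1a and Ankrd37 both knockout libraries still lay below every control, by as little as 14.9 against 14.5 CPM for Higd1a.

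The promoters of members that fell are shown because HIF and MYC proteins bind short DNA words that can be searched for. RefSeq (GRCm38.p6) promoters of 300 bases, from 250 before to 50 after a start, matched 34 of the 35 listed members (not Ndrg1, and Ero1l under its symbol Ero1a). The words were ACGTG and GCGTG, the core of the hypoxia response element, and CACGTG, the E-box of MYC and MAX, each read on both strands. An E-box holds ACGTG on both strands and so adds 2 ACGTG matches. The 250 bases before the start are printed for Bnip3 (chr7:138909507-138909756, minus strand), P4ha1 (chr10:59323046-59323295, plus), Pgk1 (chrX:106186850-106187099, plus) and Pgam1 (chr19:41911621-41911870, plus), which fell, and for Ldha (chr7:46845554-46845803, plus), which did not pass the test, with matches in capitals.
Bnip3: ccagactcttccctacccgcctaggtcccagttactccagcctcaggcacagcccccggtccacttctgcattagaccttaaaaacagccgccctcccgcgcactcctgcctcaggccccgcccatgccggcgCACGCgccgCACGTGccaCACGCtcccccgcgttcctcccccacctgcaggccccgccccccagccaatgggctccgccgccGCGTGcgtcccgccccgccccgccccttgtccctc
P4ha1: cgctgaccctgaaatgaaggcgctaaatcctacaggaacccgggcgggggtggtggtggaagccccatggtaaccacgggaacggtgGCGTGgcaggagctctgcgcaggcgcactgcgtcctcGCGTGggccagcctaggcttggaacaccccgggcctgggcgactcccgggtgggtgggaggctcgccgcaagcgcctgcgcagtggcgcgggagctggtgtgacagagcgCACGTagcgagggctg
Pgk1: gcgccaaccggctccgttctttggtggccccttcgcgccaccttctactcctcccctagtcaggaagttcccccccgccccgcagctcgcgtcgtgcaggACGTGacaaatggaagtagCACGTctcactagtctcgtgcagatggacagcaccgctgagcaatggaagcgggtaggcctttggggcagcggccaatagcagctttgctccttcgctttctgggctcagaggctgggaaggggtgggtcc
Pgam1: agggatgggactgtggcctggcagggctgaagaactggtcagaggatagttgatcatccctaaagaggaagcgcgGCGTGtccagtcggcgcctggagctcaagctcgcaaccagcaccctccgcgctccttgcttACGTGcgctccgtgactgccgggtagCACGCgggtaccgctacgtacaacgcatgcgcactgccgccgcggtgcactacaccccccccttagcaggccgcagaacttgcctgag
Ldha: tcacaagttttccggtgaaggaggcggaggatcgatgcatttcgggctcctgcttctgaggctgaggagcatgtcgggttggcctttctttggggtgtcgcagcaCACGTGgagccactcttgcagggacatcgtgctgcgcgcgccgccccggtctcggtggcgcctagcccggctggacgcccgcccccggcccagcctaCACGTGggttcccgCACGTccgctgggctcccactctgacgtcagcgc
In the printed bases Bnip3 has 2 ACGTG, 3 GCGTG and 1 CACGTG, P4ha1 and Pgam1 have 1 ACGTG and 2 GCGTG each, Pgk1 has 2 ACGTG, and Ldha has 5 ACGTG and 2 CACGTG. These starts were chosen after the matches were counted. In 300 bases, the second Ldha start in the table holds 2 GCGTG, 0 ACGTG and 0 CACGTG. The first 20 bases of that start occur in a GENCODE transcript, as do those of Bnip3, P4ha1 and Pgk1, but not those of the printed Ldha and Pgam1 starts. Of the fallen members not printed, Ero1l has 1 ACGTG and 2 GCGTG, 1 of 3 Kdm3a starts has 1 GCGTG, and 1 of 2 Pkm starts has 2 ACGTG. Of the members that fell and had a promoter, 7 of 7 held ACGTG or GCGTG in the 300 bases of at least 1 start, and so did 22 of 25 tested members that did not pass. Among the 9319 tested genes with a promoter the share was 69.2%, and among all 32851 promoters 43.8% held either word (19.6% ACGTG, 32.4% GCGTG). The E-box was found for 5 of 34 members (14.7%), 1121 of the 9319 tested genes and 7.15% of all promoters. These matches describe the letters only, and binding was not measured.

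Of the glycolytic enzymes, 3 of 14 fell and 11 did not pass, where 8.51% of all genes were lower. Both knockout libraries lay below every control for 9 of 14, where 27.0% of all tested genes did so. Pgk1, phosphoglycerate kinase (chromosome X, 106187100 to 106203699), stood at 19.0, 30.6 and 17.5 CPM in the controls and 11.4 and 12.4 CPM in the knockouts. It fell 1.88-fold (edgeR log2 fold change -0.91 with SE 0.25, adjusted p = 0.043). Pgam1, phosphoglycerate mutase (chromosome 19, 41911923 to 41918660), stood at 38.5, 46.9 and 34.2 CPM against 25.2 and 29.1 CPM. It fell 1.47-fold (edgeR log2 fold change -0.56 with SE 0.15, adjusted p = 0.043). In both genes the knockouts were below all controls and control replicate 2 was the highest library.

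Pkm, pyruvate kinase (chromosome 9, 59656368 to 59679375), was the most abundant member in CPM and in CPM per kilobase of its longest transcript. It stood at 887.8, 1030 and 836.1 CPM in the controls and 640.3 and 704.3 CPM in the knockouts. Pkm fell 1.37-fold (edgeR log2 fold change -0.45 with SE 0.115, adjusted p = 0.038). The gene count does not separate its M1 and M2 splice forms.

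Of the 11 glycolytic enzymes that did not pass, Aldoa, Ldha and Pfkl had the highest mean CPM over the 5 libraries. Aldoa, aldolase A, stood at 280.8, 384.0 and 265.0 CPM in the controls and 236.2 and 246.0 CPM in the knockouts (edgeR log2 fold change -0.36 with SE 0.155, adjusted p = 0.14). Ldha, the lactate dehydrogenase chain that favours lactate formation, stood at 219.5, 270.9 and 203.6 CPM against 174.0 and 194.6 CPM (edgeR log2 fold change -0.33 with SE 0.13, adjusted p = 0.11). Pfkl, the liver type of phosphofructokinase, stood at 172.2, 193.0 and 144.1 CPM against 129.5 and 137.7 CPM (edgeR log2 fold change -0.35 with SE 0.123, adjusted p = 0.086). In these 3 genes the groups did not overlap, although none passed the test with edgeR. Hk2, an inducible hexokinase on the outer mitochondrial membrane, came closest to the threshold, at 169.3, 179.2 and 152.6 CPM against 127.1 and 140.0 CPM (edgeR log2 fold change -0.32 with SE 0.096, adjusted p = 0.053). With DESeq2, Hk2 (adjusted p = 0.020), Pfkl (0.049), Pdk1 (0.029) and Vegfa (0.015) passed as lower, when 19.8% of all genes were called in either direction.

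Tpi1, triose phosphate isomerase, and Gapdh, the dehydrogenase of the next step, also had both knockout libraries below every control, with log2 fold changes of -0.35 and -0.33. Gpi1, glucose-6-phosphate isomerase, and Aldoc, the aldolase of brain, had log2 fold changes of -0.20 and -0.15 with overlapping groups. Those of Hk1 (0.12), Pfkp (0.13) and Pfkm (0.32) were above 0. Pfkm, the muscle type of phosphofructokinase, was at 22.3 CPM in knockout replicate 1 and at 12.8 CPM in replicate 2, against 13.4 to 15.0 CPM in the controls. Knockout replicate 1 was also the library with 361.4 CPM of skeletal muscle markers, and the part of muscle tissue in the Pfkm value was not tested. Without knockout replicate 2 Pfkm was called higher (log2 fold change 0.66, edgeR adjusted p = 0.021; 11.8% of all genes), and without knockout replicate 1 its log2 fold change was -0.13.

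**Figure D2:**
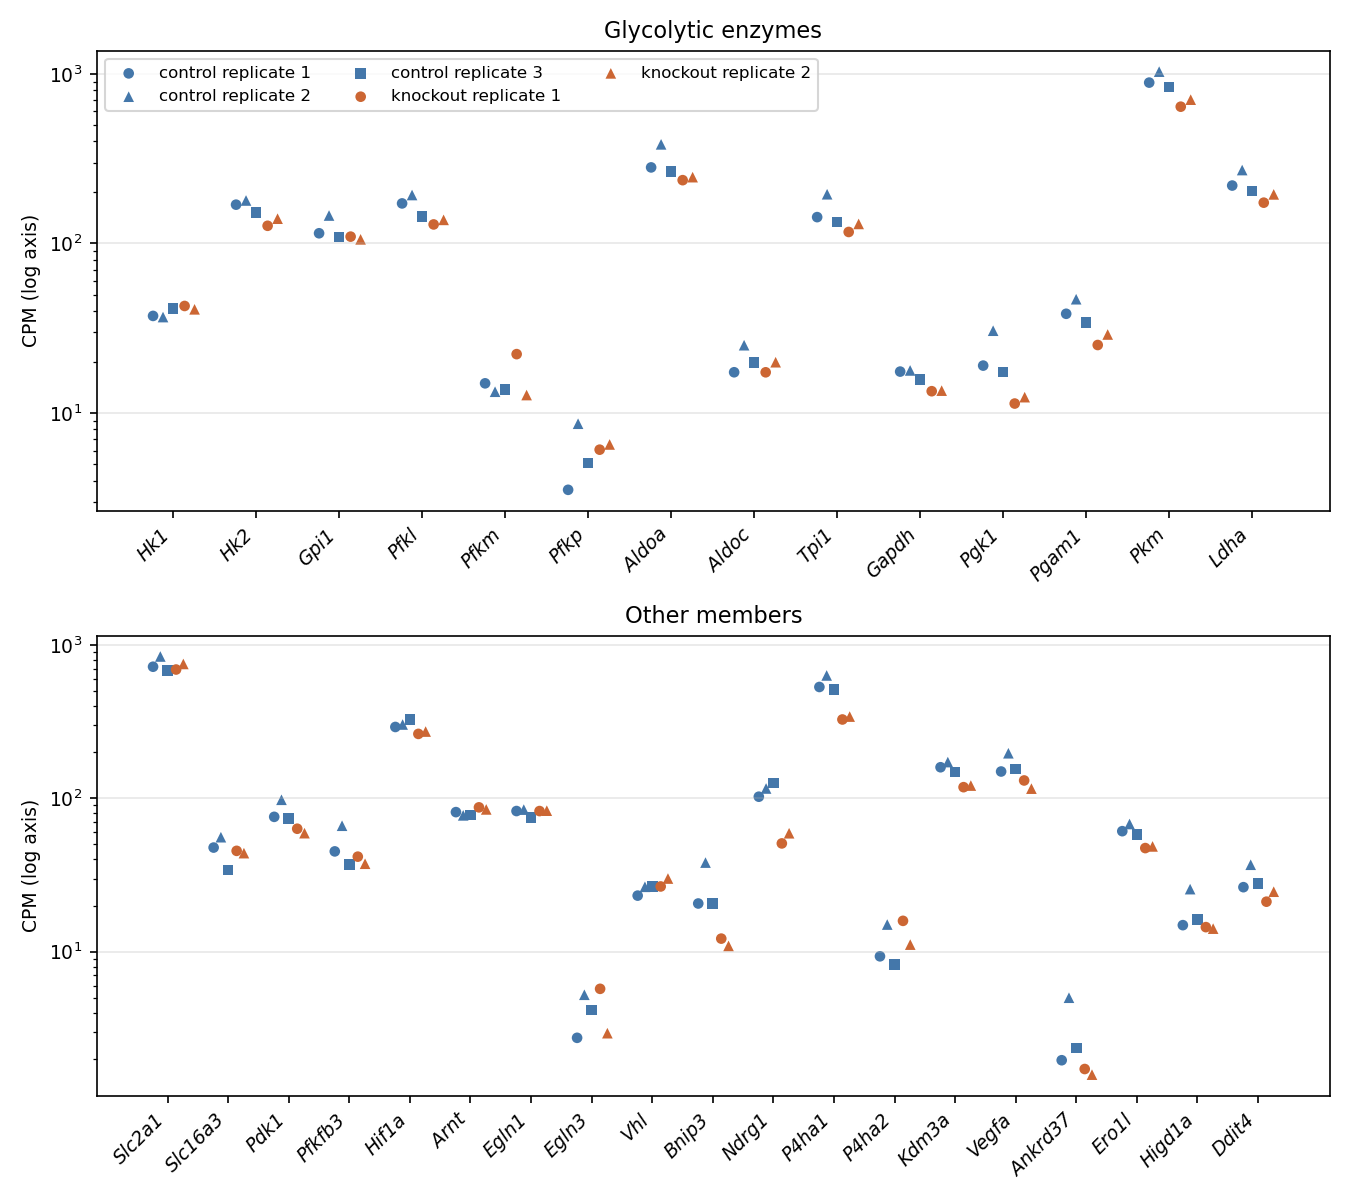
CPM (log axis) of 14 glycolytic enzymes (Eno1, near 0, is left out) and 19 other members in each of 3 control (blue) and 2 knockout (orange) libraries. Control replicate 2, the blue triangles, is the highest library for 25 of the 33 tested members.

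Several glycolytic enzymes have near-identical copies elsewhere in the genome, and how the counting treated reads that match more than 1 copy was not tested. For each member, windows of 50 bases along its longest GENCODE vM21 transcript were searched for exact copies in transcripts of other genes, pseudogenes included. Copies were found for 72.2% of the Eno1 windows, 68.0% for Pgk1, 41.5% for Pgam1, 34.4% for Pkm, 27.2% for Gapdh, 21.9% for Bnip3, 16.7% for Ldha and 13.5% for Aldoa. Eno1, enolase of most tissues, had raw counts of 0, 1 and 0 for the controls, against 0 and 1. Copies of 70.5% of the Eno1 windows were found in Eno1b. Eno1b stood at 108.5, 130.3 and 102.2 CPM against 84.4 and 96.0 CPM (edgeR log2 fold change -0.33 with SE 0.12, adjusted p = 0.087). Gapdh, usually an abundant transcript, stood at only 5.18 CPM per kilobase in the controls, against 97.8 for Tpi1, 200.1 for Aldoa and 377.5 for Pkm. These values and the window shares use the longest transcript, 3289 bases for Gapdh, which need not be the form expressed here. In CPM alone the control mean of Gapdh was 17.0, against 157.2 for Tpi1, 309.9 for Aldoa and 918.1 for Pkm. The counts of Pgk1, Pgam1, Pkm and Bnip3 are therefore uncertain, whereas Ndrg1 shared 0.15% of its windows and P4ha1, Kdm3a and Ero1l shared 0%. Divided after the windows were counted, 0 of 6 glycolytic enzymes with under 1% shared windows fell (edgeR, all with overlapping groups except Hk2 and Pfkl; median log2 fold change -0.02), against 3 of 8 of the others (median -0.35). Among the other members the numbers were 4 of 16 and 1 of 3. Over all tested genes 8.51% were lower, and these small groups were not tested against each other.

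The isozymes of a family kept their order in all 5 libraries. Per kilobase, Hk2 made up 77.0% ± 2.56 of the hexokinase signal of Hk1 and Hk2 in the controls (SD, n = 3) and 71.2% ± 2.06 in the knockouts (SD, n = 2). The lowest control was at 74.2% and the knockouts at 69.7% and 72.7%, so the groups did not overlap. Pfkl made up 89.0% ± 1.21 of phosphofructokinase in the controls and 80.5% and 87.7% in knockout replicates 1 and 2. Aldoa made up 96.4% ± 0.341 and 95.9% ± 0.269 of the aldolase signal of Aldoa and Aldoc. P4ha1 made up 97.5% ± 0.506 of the prolyl 4-hydroxylase signal in the controls, against 94.0% and 95.9% for the knockouts, below all controls. These shares were not tested.

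**Figure D3:**
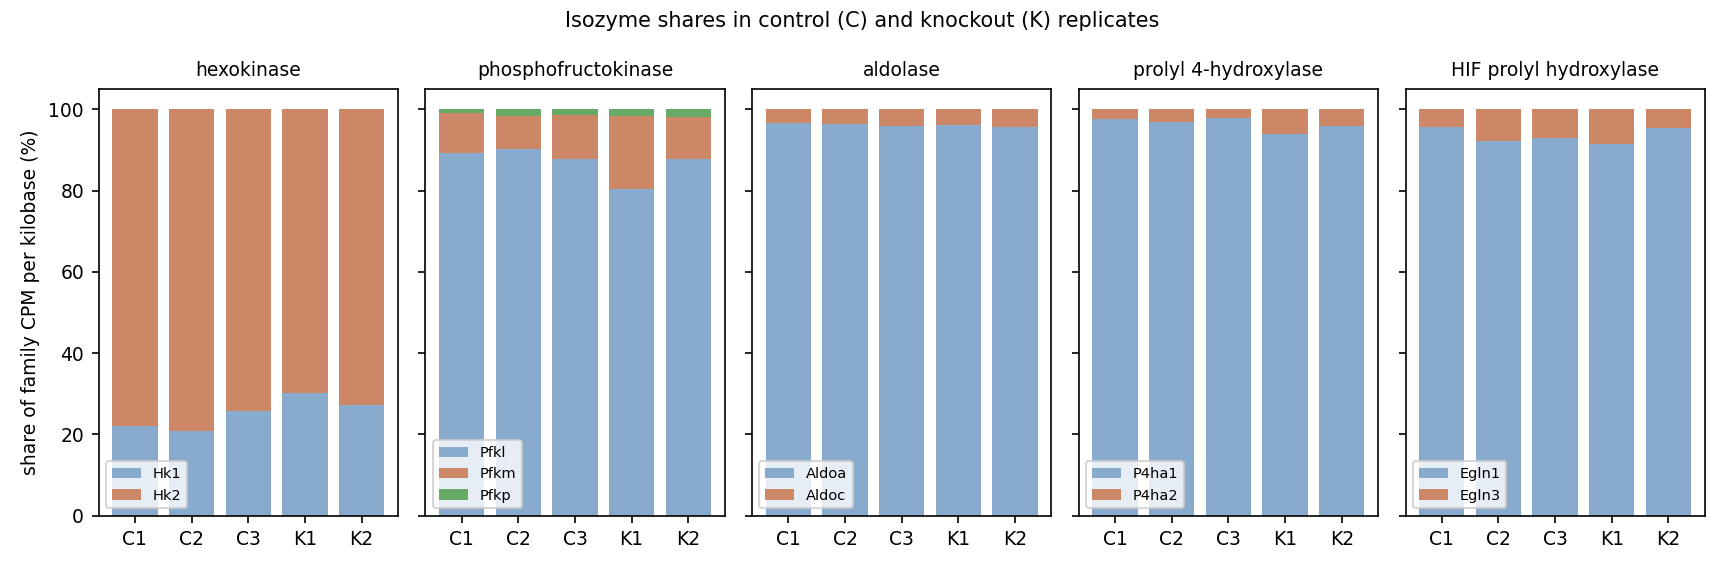
Share of each isozyme in the summed CPM per kilobase of its family (vertical axis, percent) for control replicates C1 to C3 and knockout replicates K1 and K2. Hk2, Pfkl, Aldoa, P4ha1 and Egln1 lead their families in every library, and the Pfkm share is largest in K1, at 17.9%.

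Of the 4 genes for transport and control of glycolysis, 0 passed with edgeR, and 1, Pdk1, had an unadjusted p under 0.05, against 35.8% of all genes. Slc2a1, the glucose transporter GLUT1, was the second most abundant member per kilobase. It stood at 721.2, 841.0 and 682.5 CPM in the controls and 691.5 and 751.8 CPM in the knockouts (edgeR log2 fold change -0.05 with SE 0.11, adjusted p = 0.77), with the knockouts inside the control range. Slc16a3, the lactate exporter MCT4, was likewise inside the control range (log2 fold change -0.04, SE 0.18). Pdk1, a kinase that inhibits the pyruvate dehydrogenase complex, stood at 75.7, 97.8 and 73.8 CPM against 63.3 and 59.3 CPM, with no overlap. Its edgeR log2 fold change was -0.43 with SE 0.13 (adjusted p = 0.058). Pfkfb3, which makes the activator of phosphofructokinase, had a log2 fold change of -0.32 (SE 0.22).

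The genes of the HIF system did not pass either, 0 of 5 with edgeR and 0 of 5 at an unadjusted p under 0.05 (35.8% of all genes), and DESeq2 and limma-voom (14.4% of all genes called) gave 0 as well. Hif1a, the oxygen-regulated subunit, stood at 291.9, 302.9 and 325.6 CPM in the controls and 263.1 and 272.5 CPM in the knockouts, below all controls (edgeR log2 fold change -0.20 with SE 0.085, adjusted p = 0.14). Arnt, its partner, stood at 81.3, 77.4 and 77.6 CPM against 87.3 and 84.6 CPM, above all controls (edgeR log2 fold change 0.13 with SE 0.076, adjusted p = 0.27). Egln1, the main oxygen sensor, stood at 82.6, 84.4 and 75.1 CPM against 82.6 and 83.1 CPM (log2 fold change 0.04, SE 0.083), with the knockouts inside the control range. Egln3, itself induced by HIF, stood at 2.74, 5.24 and 4.17 CPM against 5.73 and 2.94 CPM (log2 fold change 0.10, SE 0.37). Vhl, the recognition subunit for hydroxylated Hif1a, stood at 23.2, 26.49 and 26.49 CPM against 26.6 and 30.0 CPM (log2 fold change 0.16, SE 0.12). Hif1a is regulated mainly at the protein level, which these data do not measure.

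Control replicate 2 stood apart from the other controls in these genes. It was the highest of the 3 controls for 12 of 14 glycolytic enzymes and 15 of 19 other members, where 29.3% of all tested genes had it highest, and the highest of all 5 libraries for 25 of 33 members, where 17.9% did. Its log2 ratio to the mean of control replicates 1 and 3 had a median of 0.37 over the 33 members and of -0.02 over all tested genes. The largest ratios were those of Ankrd37 (1.18), Pfkp (0.99), Bnip3 (0.88), P4ha2 (0.77), Pgk1 (0.74), Higd1a (0.72) and Pfkfb3 (0.69). Ndrg1 (0.02) and Hif1a (-0.03) did not share the difference, and those of Kdm3a (0.16), Ero1l (0.19) and P4ha1 (0.28) were smaller. On the mean of log2 (CPM + 1), relative to the control mean, the glycolytic enzymes stood at -0.09, 0.22 and -0.14 across controls, against -0.27 and -0.23 for the knockouts. The low-oxygen genes stood at -0.17, 0.31 and -0.14, against -0.49 and -0.52. The gap between the lowest control and the knockouts was thus wider for the low-oxygen genes than for the enzymes, a difference that was not tested. Among the controls, replicate 2 also had the highest sums of red blood cell (129.7 CPM), muscle (49.6 CPM) and lens (82311 CPM) markers. By gene, it was the highest control for 3 of 5 tested red blood cell, 5 of 6 muscle and 4 of 10 lens markers. Its retina sum was 66.4 CPM, against 66.2 and 60.0 CPM. Its sums of mesenchyme (604.2 CPM) and macrophage (21.6 CPM) markers were the lowest of the controls. The part of these tissues in its values was not tested. Knockout replicate 1, with the highest sum of muscle markers, had the lowest sum of glycolytic enzymes (1672 CPM, against 1794 in knockout replicate 2 and 1992 to 2578 in the controls).

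**Figure D4:**
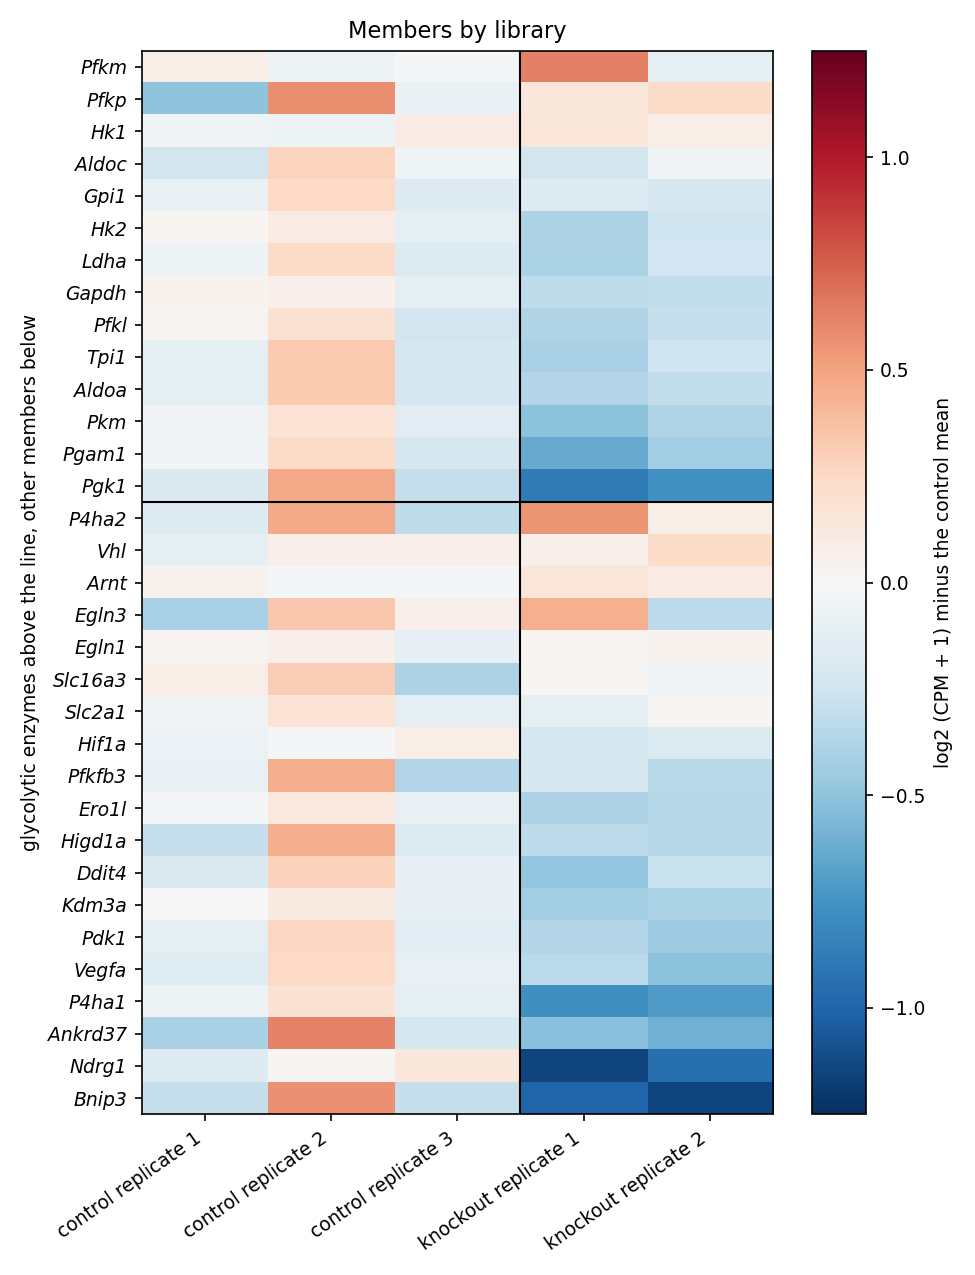
Log2 (CPM + 1) minus the control mean for the 33 tested members (rows, glycolytic enzymes above the line) in the 5 libraries (columns). The control replicate 2 column is mostly red, and both knockout columns are mostly blue, deepest for Bnip3, Ndrg1, Pgk1 and P4ha1.

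Without control replicate 2, Ndrg1 passed (log2 fold change -1.04, edgeR adjusted p = 0.047) and the other 7 members did not. At an unadjusted p under 0.05 there were 8 of 8, and 26.3% of all genes. The 8 had been selected with these same libraries, so their count at that level gives no independent support. In that fit 0.142% of all genes were lower and 0.175% higher. The medians became -0.18 for the glycolytic enzymes and -0.19 for the other members. Bnip3 then had a log2 fold change of -0.82 (adjusted p = 0.064), P4ha1 one of -0.63 (0.056), Pgk1 one of -0.61 (0.097) and Pkm one of -0.35 (0.12). Without control replicate 3 only Ndrg1 and P4ha1 passed, when 0.875% of all genes were lower. Without knockout replicate 1 it was Ndrg1 alone (log2 fold change -0.95, adjusted p = 0.016), when 0.937% were lower. Without control replicate 1, 5 of the 8 passed (not Pgk1, Pgam1 and Ero1l; 7.80% of all genes lower), and 5 without knockout replicate 2 (not Pgk1, Bnip3 and Ero1l; 10.7% lower). With 1 knockout library left, it is assumed to vary as the controls do. Ndrg1 passed in 16 of 16 alternatives and P4ha1 in 13 of 16. With each library's trend on transcript GC content and length removed, Bnip3 (-0.83, adjusted p = 0.099), Pgk1 (-0.77, 0.073) and Ero1l (-0.17, 0.30) did not pass, while Hk2 (-0.49, 0.024) and Pfkl (-0.60, 0.024) did, when 5.60% of all genes were lower.

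**Figure D5:**
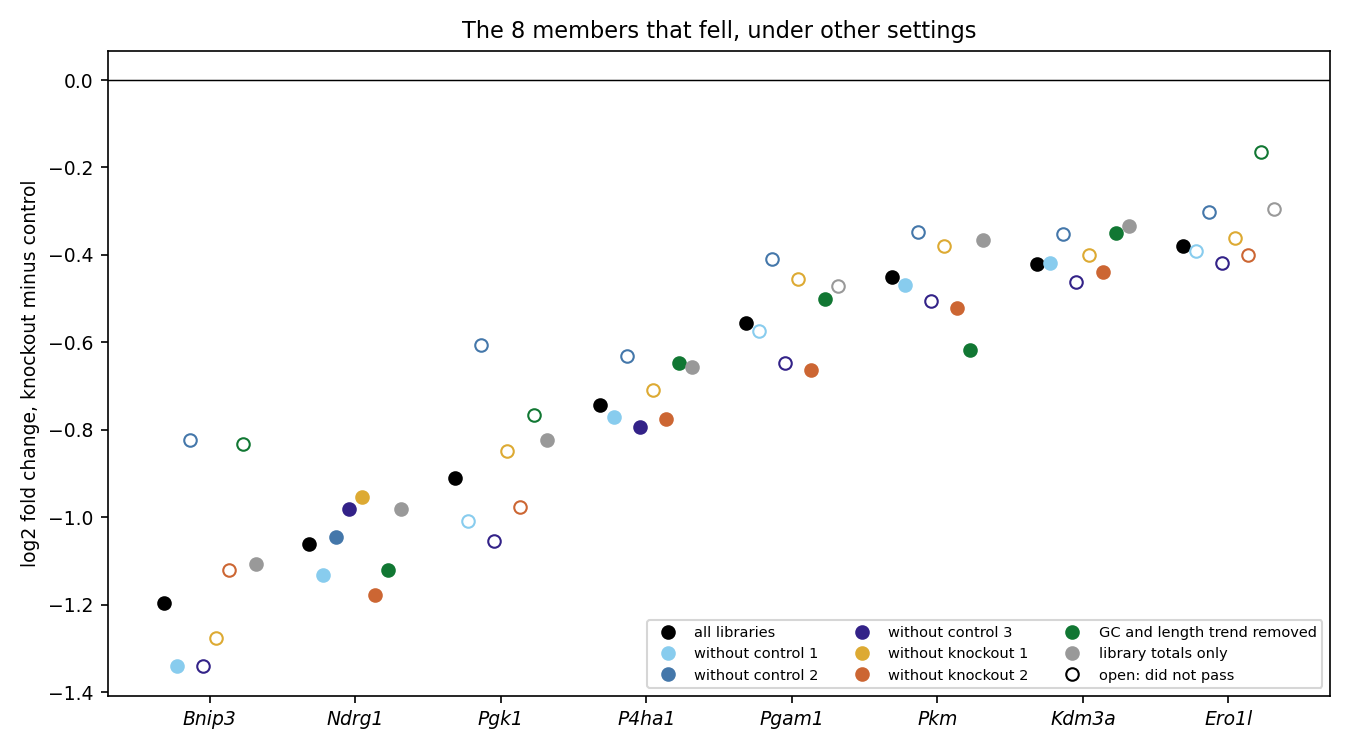
Log2 fold change (knockout minus control, vertical axis) of the 8 members that fell, with all libraries, with each library left out and under 2 other settings. Filled points passed the test, and Ndrg1 is filled throughout.

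Further genes of these pathways were counted from 3 lists, with adjusted p (edgeR) of 0.012 to 0.049 for the genes called. Of 23 tested genes of glucose and pyruvate metabolism, 3 fell and 2 rose (median log2 fold change -0.23), counts to be read against the 8.51% and 7.98% of all genes. Bpgm, which makes the haemoglobin regulator bisphosphoglycerate and can also act as a mutase, stood at 41.2, 46.9 and 47.6 CPM in the controls and 29.8 and 35.1 CPM in the knockouts, a fall of 1.40-fold. Dld, a subunit of the pyruvate dehydrogenase complex, fell 1.46-fold, and Pdp2, a phosphatase that activates this complex, 1.32-fold. Ldhb, the lactate dehydrogenase chain that favours pyruvate formation, rose 2.12-fold from a low level (2.35, 2.28 and 3.11 CPM to 5.51 and 5.45 CPM). Pdk2, a relative of Pdk1, rose 1.56-fold from 14.7, 15.9 and 12.2 CPM to 23.8 and 20.7 CPM.

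Of 18 tested partners and regulators of HIF, 4 fell and 3 rose (median log2 fold change 0.20; 8.51% and 7.98% over all genes). The chaperones Hsp90aa1 and Hsp90ab1, which hold Hif1a among many clients, fell 1.50-fold and 1.46-fold, Rack1, a ribosomal scaffold, 1.47-fold, and Cul2, the cullin of the Vhl ligase, 1.35-fold. Hif3a, an alpha subunit with inhibitory forms, rose 1.87-fold from 15.0, 20.7 and 22.3 CPM to 45.4 and 27.0 CPM, Arntl, a clock factor of the Arnt family, 1.57-fold, and Arnt2 1.37-fold. Of 41 further low-oxygen targets tested, 4 fell and 0 rose (median -0.12), near the 8.51% and below the 7.98% of all genes: Tfrc, the transferrin receptor (1.64-fold), Bnip3l, the sister of Bnip3 (1.39-fold), Flt1, a Vegfa receptor (1.27-fold), and Narf (1.20-fold). Bnip3l stood at 208.4, 217.1 and 225.1 CPM in the controls and 151.1 and 160.5 CPM in the knockouts, with control replicate 2 in the middle. With the replicate number as a block 0 genes of these lists were higher and 6 lower, and with library totals 8 were higher and 7 lower, against 5 and 11. Of the 16 genes called from these 3 lists, 0 passed without control replicate 2, and 1 passed without control replicate 3 and 1 without knockout replicate 1.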

How the data were processed

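RNA of 3 control and 2 N-myc knockout lens pools was sequenced. The authors deposited raw counts per gene symbol, per the file headers. HTSeq 0.6.1, TopHat2 2.0.13, DESeq2, Cufflinks 2.2.1, mm10 and Trim Galore 0.3.7 are named, with no role or order, per the submitters' processing notes. The sources used here do not give the annotation, strand setting or treatment of reads with several matches. Library totals were 13162384 to 13746416 counts. Symbols passing filterByExpr (minimum count 10) were tested, 12035 of 12370. Counts were scaled by TMM and compared in edgeR 4.0.16 (R 4.3.3; estimateDisp, glmQLFit, glmQLFTest, no covariate; biological coefficient of variation 14.1%), with Benjamini-Hochberg adjustment over all genes tested and a threshold of 0.05. The SE is the log2 fold change over the square root of F. CPM use TMM-scaled totals. In 3 simulations of the 12035 genes, each with 200 changed genes, edgeR recovered 36.0% of 1.5-fold and 69.3% of 2-fold changes. False calls averaged 13. The changed genes had to reach a minimum mean count, and they were fewer than the 1984 called here. These rates therefore need not hold for the real data. No pair of libraries of a group agreed within sampling noise (chi-square over degrees of freedom 9.98 to 23.39). Alternatives were DESeq2 1.42.0, limma-voom (limma 3.58.1), other scalings and filters, a replicate block, each library left out, and a loess trend on transcript GC content and length removed (known for 99.4% of tested genes; the robust form of the trend was chosen after a least-squares form was seen to shift the median of all genes). Members and lists were chosen with earlier results of these data known. Named genes were all called members, the HIF system, the 3 most abundant enzymes not called, and up to 3 called genes per direction of each further list; other members, Cul2 and Narf were named after their values were seen.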

Additional observations from a re-analysis of the deposited data

How the results depend on the processing

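The count of changed genes was 1984 with all libraries, 995 with the replicate number as a block, 1142 with the GC and length trend removed and 631 with both. The replicate numbers shared by the groups are not stated to pair the pools. Deviations from the group means of same-numbered libraries correlated at -0.093 and 0.007. The deviations of the 2 knockout libraries mirror each other, so these values are not independent checks of pairing. Library totals as the only scaling gave 1511 higher and 637 lower genes (960 and 1024 with TMM) and moved the median of all genes to 0.09. Leaving out 1 library gave 38 to 2717 genes. Of the glycolytic enzymes, 3 were called, against 5 with DESeq2, 1 with limma-voom, 5 with the block, 6 with the block and the trend removed, and 0 to 4 without 1 library. Of the other members, 5 were called, against 3 with the trend removed, 3 with the block as well and 1 to 4 without 1 library. Of the further pathway genes, 16 were called (5 higher), 6 with the block and 5 with the trend removed as well (0 higher in both), and 0 to 22 without 1 library. Leaving out control replicate 2 and knockout replicate 1 together, chosen after seeing the data, gave 172 genes, 0 enzymes, 1 other member (Ndrg1) and 0 further genes; the knockout library left was assumed to vary as the controls do. Without length scaling Hk2 made up 81.2% and 76.1% of its family in controls and knockouts, Aldoa 93.7% and 92.8%, and P4ha1 98.1% in controls. Some members that did not pass changed sign, and the cause was not tested. With the trend removed Hk1 was at -0.15 (-0.059 with the block), Hif1a at 0.022 (0.036) and Egln1 at -0.18 (-0.20), and Egln1 at -0.012 with the block alone. With library totals Slc2a1 was at 0.033 and Slc16a3 at 0.050. With 1 library left out, or both named above, Pfkm lay between -0.17 and 0.66, Pfkp between -0.12 and 0.60, Aldoc between -0.26 and 0.10, Slc2a1 between -0.11 and 0.10, Slc16a3 between -0.20 and 0.14, Egln1 between -0.0028 and 0.083 and Egln3 between -0.46 and 0.49.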
